A study of Mus musculus with 6 samples.

Results

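The genes described are 8 receptors and adhesion molecules that guide blood progenitors to the thymus or hold them in the bone marrow: Ccr9, Ccr7, Selplg, Cxcr4, S1pr1, Ccr2, Cx3cr1 and Cd44. They were chosen by symbol, as 8 of the 18194 genes with a probe set annotated to that gene alone, and they had 19 of the 45101 probe sets. Each gene is represented by its probe set with the highest mean over the 6 arrays, and its other probe sets are given beside it. The members had no filter on low values, so all 8 were tested.

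RNA of cells sorted from adult mouse bone marrow was measured on Affymetrix 3' arrays, 1 sample per array, in 3 groups of 2 arrays. WT LMPP and WT LSK FLT3- came from C57bl/6 mice, and E2A-KO LMPP from E2A-KO mice on that background. All groups were sorted as LIN-SCA1+KIT+ cells. LMPP, the lymphoid-primed multipotent progenitors, were FLT3hi, and LSK FLT3- cells, which hold the stem cells, lacked FLT3 at the surface. The stated aim was to find expression changes between WT and E2A-KO LMPP. The labels do not give the E2A allele, the number or age of the mice beyond adult, or whether cells were pooled or replicate arrays stand for different mice, so p-values reflect array-to-array spread alone.

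Progenitors that settle the thymus leave the marrow through the blood. They roll on thymic vessel walls through PSGL-1, the P-selectin ligand encoded by Selplg, and respond to CCL25 through CCR9 and to CCL19 and CCL21 through CCR7. CXCR4 holds progenitors near CXCL12 in the marrow, S1PR1 draws cells towards sphingosine 1-phosphate in blood, and CD44 binds hyaluronan. E2A proteins, the products of Tcf3, are basic helix-loop-helix factors that bind short DNA words called E-boxes and are needed for early lymphoid development.

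Values are log2 of the authors' RMA intensities. RMA is a method that corrects background, normalizes arrays and combines probes into 1 value per probe set. The median of each array lay between 3.90 and 4.04. Values near or below it are in the dim range, where differences are compressed and so understated; no detection calls were used. Levels are compared between groups for one probe set, never between probe sets. Summed levels of marker lists add linear values over genes, so the brightest probe sets weigh most in them. Changes are differences of group means with their standard errors (SE), and adjusted p-values are limma's, two-sided, Benjamini-Hochberg over 18194 genes with a threshold of 0.05. Replicate arrays correlated at r of 0.989 to 0.996. The upper quartile of the LSK FLT3- arrays (6.13 and 6.15) lay above that of the LMPP arrays (5.78 to 5.82). In the dim range the offset went the other way. The lower quartile was 3.04 on both LSK FLT3- arrays against 3.19 to 3.22 on the LMPP arrays. The medians were 3.91 and 3.90 against 4.01 to 4.04. The part of these offsets in the comparisons with LSK FLT3-, rises of dim genes among them, was not tested beyond the scalings given below. Tcf3 itself was at 6.93 and 6.86 in WT LMPP, against 6.80 and 6.53 in E2A-KO LMPP and 7.27 and 7.41 in LSK FLT3- on its brightest probe set. None of its 3 probe sets passed between the genotypes (changes of -0.23, -0.09 and -0.33). Where they lie relative to the deleted part is not known here, and they do not check the genotype. The gate gene Flt3 was at 10.80 on both WT LMPP arrays, 10.70 and 10.76 in E2A-KO LMPP, and 8.87 and 8.76 in LSK FLT3-. Kit, the other gate gene measured, was lower in WT LMPP than in LSK FLT3- by a change of -1.24 and did not pass between the genotypes (-0.32).

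In E2A-KO LMPP, 1 of the 8 genes changed against WT LMPP: Ccr9 fell, and the other 7 did not pass. Of all genes, 1.37% passed in this comparison, 181 lower and 69 higher. The arrays of the 2 genotypes did not overlap for 5 of the 8 genes, against 41.6% of all genes. The median change of the 8 genes was -0.19 and that of all genes was -0.02.

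From LSK FLT3- to LMPP in wild-type mice, 4 of the 8 genes rose (Ccr9, Ccr7, Cxcr4 and Ccr2) and 0 fell. Of all genes 10.4% rose, 23.7% fell and 34.1% passed in either direction. The arrays did not overlap for 7 of the 8 genes, against 71.8% of all genes. The median change was 0.61 for the 8 genes and -0.01 for all genes. E2A-KO LMPP against LSK FLT3- gave 2 higher genes (Ccr7 and Ccr2) and 0 lower, where 11.0% of all genes were higher, 26.5% were lower and 37.5% passed. Here 7 of the 8 genes did not overlap, against 74.0% of all genes, and the median change of the 8 was 0.31 against -0.02. The 3 comparisons share arrays, so their values are set side by side and are not independent.

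**Figure D1:**
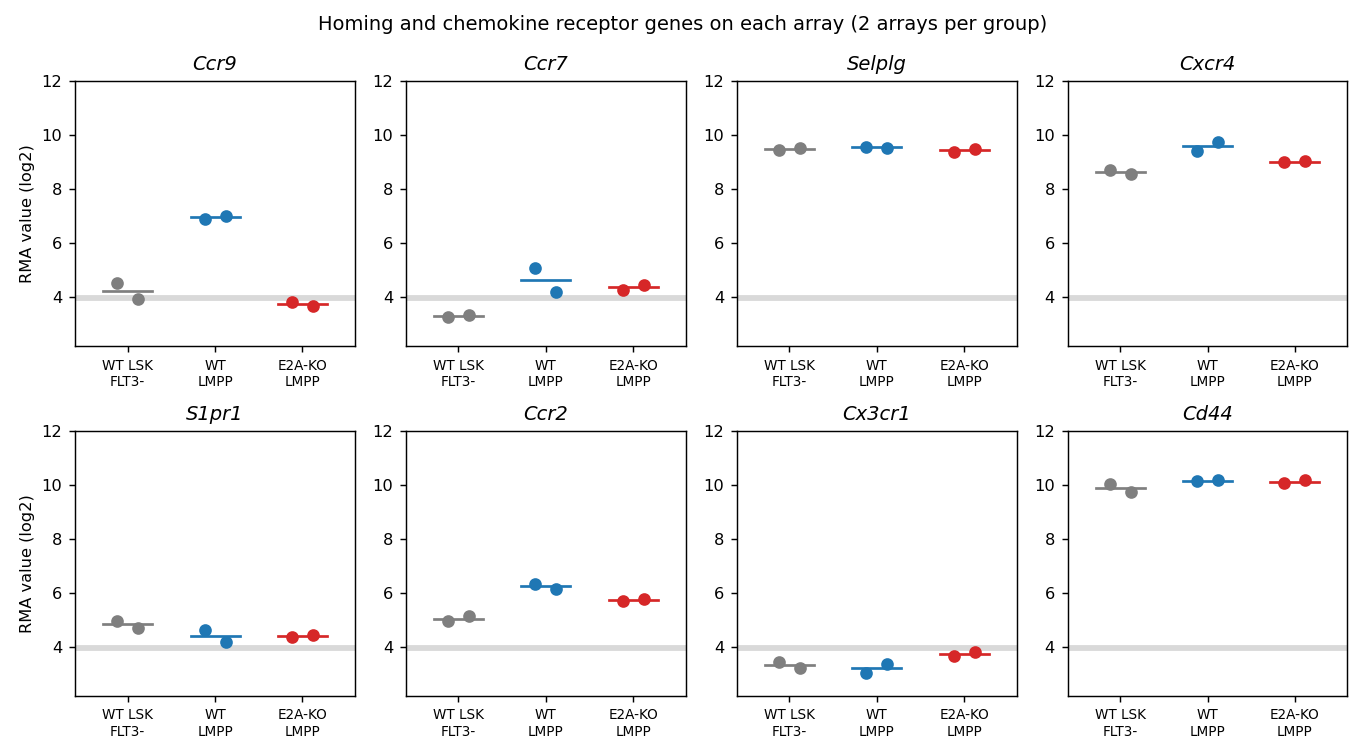
Log2 RMA value of each of the 8 genes on every array (points) with the group mean (line), in WT LSK FLT3-, WT LMPP and E2A-KO LMPP, 2 arrays each; the grey band is the range of the array medians, 3.90 to 4.04. Ccr9 is at 6.90 and 7.02 in WT LMPP and between 3.67 and 4.52 on the other 4 arrays, while Selplg and Cd44 stay in a narrow range.

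Ccr9 encodes the receptor for CCL25, a chemokine made by thymic epithelium and small intestine. Its brightest probe set, 1427419_x_at, read 6.90 and 7.02 in WT LMPP, against 3.82 and 3.67 in E2A-KO LMPP, and 4.52 and 3.94 in LSK FLT3-. Both WT LMPP arrays stood far above the other 4, and the E2A-KO arrays were below the array medians. Ccr9 fell in E2A-KO LMPP by 3.22 (SE 0.19, 95% interval -3.65 to -2.78, adjusted p = 0.000115), a 9.29-fold difference. It rose 6.63-fold from LSK FLT3- to WT LMPP (change 2.73, SE 0.19, adjusted p = 4.38e-05). E2A-KO LMPP and LSK FLT3- differed by -0.49 (-0.92 to -0.05), which did not pass (adjusted p = 0.0750). That difference passed with array medians centred (adjusted p = 0.0284) and without LSK FLT3- replicate 2 (0.0312), and its sign turned when probe sets that may cross-hybridise were left out. The order was thus WT LMPP highest, with the other groups not separated.

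The suffix of 1427419_x_at marks a probe set whose probes can match other transcripts, so the other 4 Ccr9 probe sets bear on the result. Probe set 1421920_a_at read 4.20 and 4.10 in WT LMPP, against 2.86 and 3.14 in E2A-KO LMPP, and 3.02 and 2.94 in LSK FLT3-. It showed the same order in a dimmer range, with a change of -1.16 between the genotypes (adjusted p = 0.00929 over all probe sets) and of 1.17 from LSK FLT3- to WT LMPP (adjusted p = 0.00105). Probe set 1436065_at rose from LSK FLT3- to WT LMPP by 0.80 (adjusted p = 0.00805) and differed between the genotypes by only -0.13, which did not pass. Its E2A-KO LMPP arrays, at 3.49 and 3.23, were above LSK FLT3- at 2.66 and 2.72 (change 0.67, adjusted p = 0.0142). The last 2 probe sets, 1421919_a_at and 1442758_at, lay between 2.56 and 3.27 on all arrays and passed in no comparison. When the mean of all 5 probe sets stood for the gene, the genotype change was -0.99 and still passed (adjusted p = 0.00712).

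**Figure D2:**
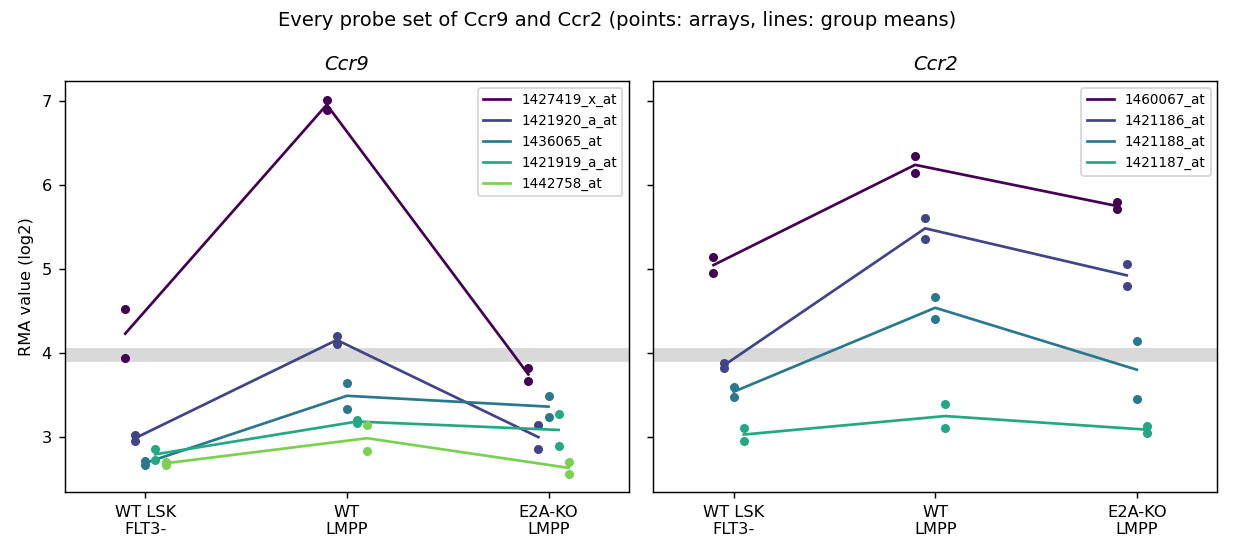
Log2 RMA value of the 5 probe sets of Ccr9 and the 4 of Ccr2 by group; points are arrays, lines join group means and the grey band is the range of the array medians. The 2 brightest Ccr9 probe sets peak in WT LMPP and fall in E2A-KO LMPP, and 3 Ccr2 probe sets peak in WT LMPP.

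The sequences before the starts of Ccr9, Cxcr4 and Ccr2 are shown because these genes rose together from LSK FLT3- to LMPP and E2A proteins bind E-boxes. They are RefSeq windows of build GRCm38.p6, each 300 bases, from 250 bases before the gene start to 50 after, read in the direction of the gene; 5 of the 8 genes had such a window. Capitals mark matches to the E-box word CANNTG, which reads the same way on both strands as a pattern. Ccr9 is at chr9:123766961-123767260 on the plus strand, Cxcr4 at chr1:128592250-128592549 on the minus strand and Ccr2 at chr9:124101933-124102232 on the plus strand.
Ccr9: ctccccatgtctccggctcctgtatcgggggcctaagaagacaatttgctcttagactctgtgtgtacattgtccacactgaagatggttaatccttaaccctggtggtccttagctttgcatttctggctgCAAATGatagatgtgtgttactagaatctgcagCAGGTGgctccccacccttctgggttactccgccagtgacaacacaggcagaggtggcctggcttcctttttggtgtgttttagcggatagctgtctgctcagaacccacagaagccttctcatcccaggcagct
Cxcr4: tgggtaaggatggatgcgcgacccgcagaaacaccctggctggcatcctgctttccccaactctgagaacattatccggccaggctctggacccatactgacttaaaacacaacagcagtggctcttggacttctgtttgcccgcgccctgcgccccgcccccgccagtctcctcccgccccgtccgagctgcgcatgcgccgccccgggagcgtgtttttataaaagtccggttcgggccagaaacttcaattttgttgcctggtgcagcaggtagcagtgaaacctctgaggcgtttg
Ccr2: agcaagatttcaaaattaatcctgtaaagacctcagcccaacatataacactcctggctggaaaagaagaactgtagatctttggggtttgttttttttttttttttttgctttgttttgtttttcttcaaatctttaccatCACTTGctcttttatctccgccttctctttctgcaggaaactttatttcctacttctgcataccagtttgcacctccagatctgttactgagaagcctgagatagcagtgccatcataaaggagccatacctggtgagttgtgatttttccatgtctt
The Ccr9 window held 2 matches, CAAATG at 118 bases and CAGGTG at 85 bases before the start. The Ccr2 window held CACTTG at 108 bases before the start, and the Cxcr4 window held no match. Of the other windows, that of Cx3cr1 held 3 matches, with CAGCTG at 121 bases before the start, and that of Cd44 held no match. Among 32851 RefSeq windows of this length, 72.3% held at least 1 CANNTG, a count that includes the narrower words, 20.2% held CAGGTG on either strand and 16.3% held CAGCTG. A match is a word in the sequence, and these data hold no measure of binding.

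Ccr7 encodes the receptor for CCL19 and CCL21 and had 1 probe set, 1423466_at. It read 3.26 and 3.37 in LSK FLT3-, 5.07 and 4.20 in WT LMPP, with 4.28 and 4.45 in E2A-KO LMPP. All 4 LMPP arrays were above both LSK FLT3- arrays, and the genotypes overlapped. Ccr7 rose 2.50-fold from LSK FLT3- to WT LMPP (change 1.32, SE 0.25, adjusted p = 0.00434). E2A-KO LMPP was 2.08-fold above LSK FLT3- (change 1.05, SE 0.25, adjusted p = 0.0105). That last call was lost without E2A-KO LMPP replicate 2 (adjusted p = 0.0543), LSK FLT3- replicate 1 (0.0788) or LSK FLT3- replicate 2 (0.0593). The genotypes differed by -0.27 (-0.82 to 0.29, adjusted p = 0.669), and this turned to 0.17 without WT LMPP replicate 1, the brightest array.

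Selplg, the gene of PSGL-1, had 1 probe set, 1449127_at, and lay between 9.38 and 9.56 on all 6 arrays. It read 9.44 and 9.54 in LSK FLT3-, 9.56 and 9.54 in WT LMPP, with 9.38 and 9.49 in E2A-KO LMPP. The genotypes differed by -0.11 (-0.40 to 0.18, adjusted p = 0.747), LMPP and LSK FLT3- by 0.06 (-0.23 to 0.35, adjusted p = 0.728), and E2A-KO LMPP and LSK FLT3- by -0.05 (-0.34 to 0.24, adjusted p = 0.784). No group could be ordered against another, and the sign of the difference between WT LMPP and LSK FLT3- turned with array medians centred.

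Cxcr4 encodes the receptor for CXCL12, the chemokine that retains progenitors in the marrow. On its 1 probe set, 1448710_at, it read 8.72 and 8.57 in LSK FLT3-, 9.01 and 9.03 in E2A-KO LMPP, and 9.40 and 9.76 in WT LMPP. The 3 groups did not overlap. Cxcr4 rose 1.91-fold from LSK FLT3- to WT LMPP (change 0.94, SE 0.15, adjusted p = 0.00247). The E2A-KO arrays lay between the wild-type groups, at -0.56 from WT LMPP (SE 0.15, -0.91 to -0.21, adjusted p = 0.135) and 0.38 from LSK FLT3- (0.03 to 0.72, adjusted p = 0.0833). Neither neighbouring difference passed. The first passed with a variance trend (adjusted p = 0.0143). The second passed with the 4 arrays of the 2 groups alone (adjusted p = 0.0438), with quantile normalization (0.0119) and with a variance trend (0.0188).

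S1pr1, which encodes the receptor that draws cells out of tissues into blood, read 4.98 and 4.69 in LSK FLT3-, 4.65 and 4.17 in WT LMPP, with 4.37 and 4.44 in E2A-KO LMPP on its 1 probe set, 1423571_at. The genotypes overlapped, with a difference of -0.0011 (-0.41 to 0.41, adjusted p = 0.999). Both LMPP groups lay below LSK FLT3-, WT by -0.43 (adjusted p = 0.0991) and E2A-KO by -0.43 (adjusted p = 0.0935), and neither passed. The first passed with array medians centred (adjusted p = 0.0457) and was -0.67 without WT LMPP replicate 1. The second passed with array medians centred (0.0335) and with the 4 arrays of the 2 groups alone (0.0417).

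Ccr2, the receptor for CCL2 and a marker of inflammatory monocytes that some early lymphoid progenitors also carry, read 4.96 and 5.14 in LSK FLT3-, 5.71 and 5.79 in E2A-KO LMPP, and 6.34 and 6.14 in WT LMPP on probe set 1460067_at. The order of the groups was the same as for Cxcr4, without overlap. Ccr2 rose 2.29-fold from LSK FLT3- to WT LMPP (change 1.19, SE 0.14, adjusted p = 0.000579). E2A-KO LMPP was 1.63-fold above LSK FLT3- (change 0.70, SE 0.14, adjusted p = 0.00520), a call lost without LSK FLT3- replicate 1 (adjusted p = 0.0638). The genotypes differed by -0.49 (-0.81 to -0.17), which did not pass (adjusted p = 0.150).

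A further Ccr2 probe set, 1421186_at, read 3.88 and 3.81 in LSK FLT3-, 4.79 and 5.05 in E2A-KO LMPP, and 5.61 and 5.36 in WT LMPP. It had the same order, rising by 1.64 from LSK FLT3- to WT LMPP (adjusted p = 0.000273 over all probe sets) and lying 1.08 above LSK FLT3- in E2A-KO LMPP (adjusted p = 0.00155), and its genotype difference of -0.56 did not pass (0.155). Probe set 1421188_at rose by 1.00 from LSK FLT3- to WT LMPP (adjusted p = 0.0115) and was -0.74 between the genotypes (0.177). Its E2A-KO arrays, at 3.45 and 4.15, lay apart from each other, and 1421187_at stayed between 2.95 and 3.39 and passed nowhere.

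Cx3cr1 encodes the receptor for CX3CL1, found on monocytes and macrophages. On 1450020_at it read 3.46 and 3.21 in LSK FLT3-, 3.04 and 3.38 in WT LMPP, with 3.68 and 3.83 in E2A-KO LMPP, all below the array medians. The E2A-KO arrays were the highest, 0.54 above WT LMPP (0.17 to 0.91, adjusted p = 0.167) and 0.42 above LSK FLT3- (adjusted p = 0.0713), and neither difference passed. The second passed with the 4 arrays of the 2 groups alone (adjusted p = 0.0446) and in no other separate fit. Its other probe set, 1450019_at, lay between 2.85 and 3.26 and went the other way between the genotypes, by -0.35, so the 2 probe sets give no common direction.

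Cd44, the gene of the hyaluronan receptor that marrow progenitors carry from the stem cell stage on, was at 10.02 and 9.72 in LSK FLT3-, 10.12 and 10.18 in WT LMPP, with 10.06 and 10.18 in E2A-KO LMPP on 1423760_at. The genotypes overlapped (change -0.03, -0.36 to 0.30, adjusted p = 0.951). WT LMPP was 0.28 above LSK FLT3- (-0.05 to 0.61, adjusted p = 0.161), which passed with quantile normalization (adjusted p = 0.0420) and with a variance trend (0.0358). The other 3 Cd44 probe sets, 1434376_at, 1452483_a_at and 1443265_at, passed in no comparison, with genotype changes of -0.02, 0.11 and 0.02.

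**Figure D3:**
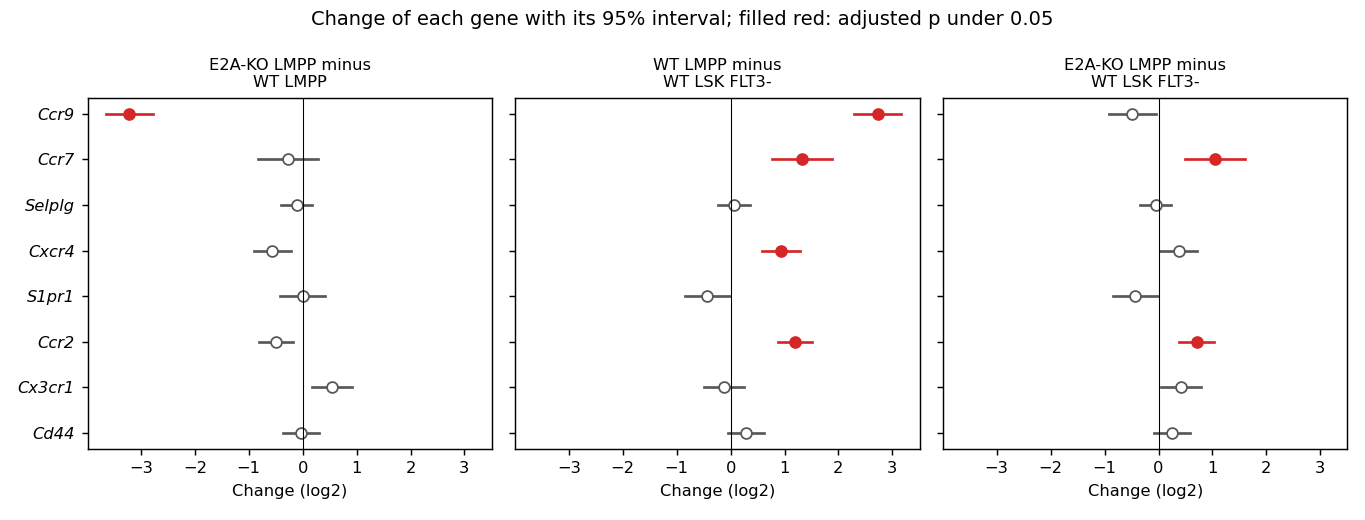
Change (log2) of each of the 8 genes with its 95% interval in the 3 comparisons, the group named second subtracted from the first; filled red points have an adjusted p under 0.05. Ccr9 at -3.22 is the only filled point between the genotypes, and 4 genes are filled and above 0 between WT LMPP and LSK FLT3-.

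Beyond the members, the receptors' own family was measured for 21 of 23 listed chemokine receptor genes. Between the genotypes 1 fell, Ccr9, and 20 did not pass; the list's median was -0.08 against -0.02 for all genes. The next largest differences were -0.58 for Xcr1, -0.56 for Cxcr4 and 0.54 for Cx3cr1. At the step from LSK FLT3- to WT LMPP 8 rose and 1 fell, with a median of 0.24 against -0.01. Much of the list was dim, as only 8 of the 21 were still tested without the dimmest 40% of genes. In LSK FLT3-, Xcr1, Ackr2 and Cxcr2 had means of 2.88, 3.75 and 3.85, below the array medians. After Ccr9, Ccr7, Ccr2 and Cxcr4, the risers were Cxcr3 (0.87), Xcr1 (0.62), Ackr2 (0.58) and Cxcr2 (0.45), and Ccrl2 fell by 0.44. These calls, except that of Cxcr3, were lost when single arrays were left out, and without either LSK FLT3- array 5 of the list rose and 0 fell. Without LSK FLT3- replicate 1 the adjusted p was 0.212 for Xcr1, 0.0917 for Ackr2, 0.116 for Cxcr2 and 0.0666 for Ccrl2. Without LSK FLT3- replicate 2 it was 0.102, 0.0566, 0.147 and 0.317 in the same order. Leaving out WT LMPP replicate 1 ended the calls of Cxcr2 (0.0682) and Ccrl2 (0.0759), and leaving out replicate 2 those of Xcr1 (0.158) and Ccrl2 (0.130). The Ccrl2 call also ended with the 4 arrays of the 2 groups alone (0.0551) and with the replicate block (0.0598). In E2A-KO LMPP against LSK FLT3- 6 were higher and 2 lower, with a median of 0.27. Without LSK FLT3- replicate 1 this became 0 higher and 1 lower, with adjusted p of 0.0788 for Ccr7, 0.0638 for Ccr2, 0.0672 for Cxcr3 and 0.0533 for Ackr2. Without LSK FLT3- replicate 2 it was 2 higher and 1 lower.

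**Figure D4:**
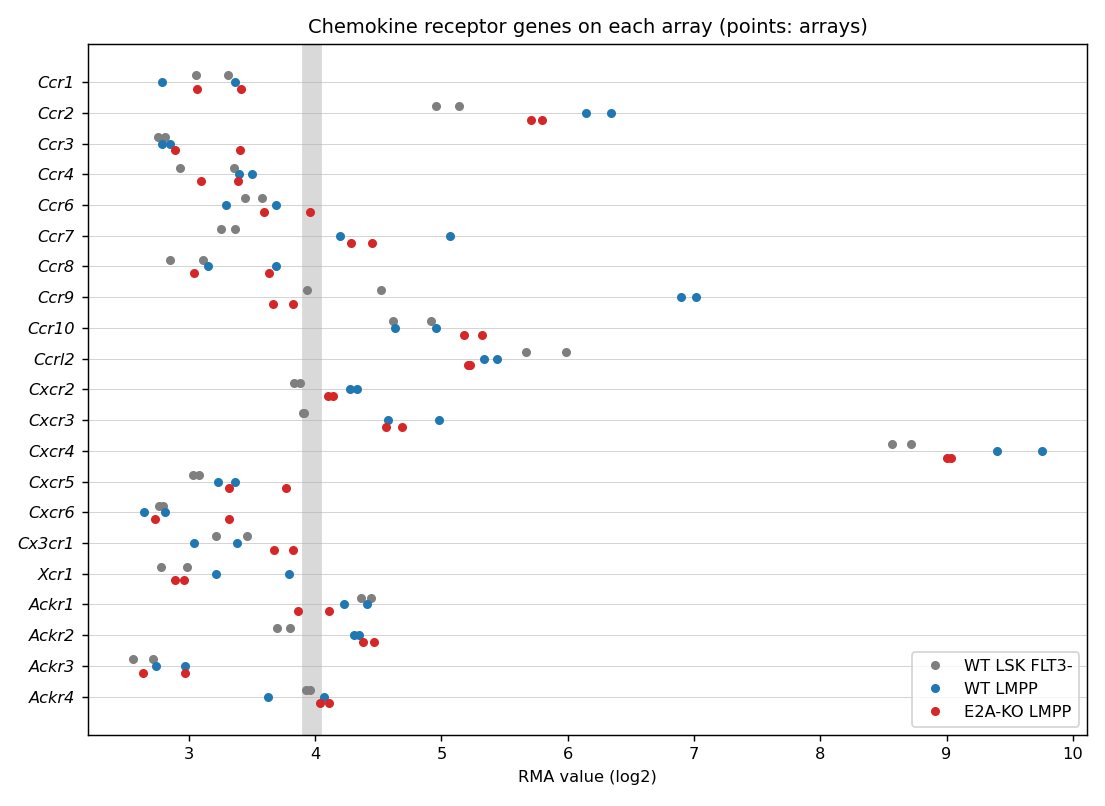
Log2 RMA value of the 21 measured chemokine receptor genes on each array, with WT LSK FLT3- in grey, WT LMPP in blue and E2A-KO LMPP in red; the grey band is the range of the array medians. Ccr9 is the gene whose blue points (6.90 and 7.02) lie farthest from its red points (3.67 and 3.82); levels of different genes are not comparable.

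Of 10 genes of the receptors' ligands, 8 were measured and 0 passed between the genotypes, with a median of 0.02. Selp, the gene of P-selectin that PSGL-1 binds, fell by 2.54 from LSK FLT3- to WT LMPP. Selp read 0.84 higher in E2A-KO than in WT LMPP (adjusted p = 0.0766), which passed with a variance trend (0.0360) and without E2A-KO LMPP replicate 1 (0.0438). Cxcl12, the CXCR4 ligand, differed by -0.43 between the genotypes and did not pass.

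PSGL-1 binds selectins only when glycosyltransferases and sulfotransferases have modified it. Of 12 genes listed for this, Selplg included, 11 were measured and 0 passed between the genotypes, where the largest differences were 0.41 for Gcnt1, the core 2 branching enzyme, and -0.38 for C1galt1c1, the chaperone of the core 1 enzyme. From LSK FLT3- to WT LMPP 1 rose, St3gal6 (0.61), and 5 fell, among them Gcnt1 by 1.62, C1galt1c1 by 1.10, C1galt1 by 0.75 and Tpst2 by 0.73. The last 2 calls were lost with quantile normalization (adjusted p of 0.0984 and 0.150) and without LSK FLT3- replicate 1 for C1galt1 (0.0618) or replicate 2 for Tpst2 (0.0673). The St3gal6 call was lost without LSK FLT3- replicate 1 (0.0681), LSK FLT3- replicate 2 (0.134) or WT LMPP replicate 1 (0.0750), and without probe sets that may cross-hybridise (0.704). Without either LSK FLT3- array 0 genes of the list rose and 3 fell. The list's median was -0.09 between the genotypes and -0.01 between the stages.

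The 12 genes of the sphingosine 1-phosphate pathway, S1pr1 included, gave 0 calls between the genotypes, with a median of -0.09; Spns2, an exporter of the lipid, differed by 0.50 and S1pr4, a receptor, by -0.47. Of these, Spns2 passed with a variance trend (adjusted p = 0.0145). Between the stages the median was -0.41. Here 2 rose, Cd69, whose product removes S1PR1 from the surface, by 0.96, and Klf2, a factor that activates S1pr1 in T cells, by 0.71. The 4 that fell included Spns2 by 1.49, Sgpp1 by 1.09 and S1pr4 by 0.77. Klf2 lost its call without LSK FLT3- replicate 1 (adjusted p = 0.0901) or replicate 2 (0.0528). The S1pr4 call was lost with quantile normalization (adjusted p = 0.143) and without WT LMPP replicate 1 (0.0535), LSK FLT3- replicate 1 (0.0761) or LSK FLT3- replicate 2 (0.0786). Without either LSK FLT3- array the list gave 1 higher and 2 lower.

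Of 29 genes that carry chemokine receptor signals inside the cell, 28 were measured and 0 passed between the genotypes, with a median of -0.13. Plcb2, a phospholipase, differed by -0.67 (adjusted p = 0.0742) and Pik3cg, the catalytic subunit of PI3K gamma, by -0.57 (0.0884). Plcb2 passed without the dimmest 40% of genes (0.0484), and Pik3cg with the mean of all probe sets (0.0386) and with a variance trend (0.0222). From LSK FLT3- to WT LMPP 2 rose and 9 fell, with a median of -0.10. This split turned with quantile normalization, to 8 higher and 4 lower. Without LSK FLT3- replicate 1 it was 0 higher and 6 lower, without LSK FLT3- replicate 2 it was 0 and 5, without WT LMPP replicate 1 it was 0 and 8, and without WT LMPP replicate 2 it was 1 and 9. The falls included Rgs18 by 1.30 and Rgs1 by 1.29, both regulators that shorten G protein signals, Arrb1, an arrestin, by 1.03 and Gnai3, a G protein subunit, by 0.81. The Arrb1 call was lost with quantile normalization (0.0621).

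All 8 listed integrin genes were measured, and 2 rose in E2A-KO LMPP, with a median of 0.06. Itgb7, the beta-7 chain, read 7.16 and 6.94 in WT LMPP, against 7.92 and 7.82 in E2A-KO LMPP and 6.24 and 6.32 in LSK FLT3-, a genotype change of 0.82 (adjusted p = 0.0251). Itga6, the laminin receptor chain, read 6.80 and 6.73 in WT LMPP, against 7.55 and 7.53 in E2A-KO LMPP and 8.48 and 8.43 in LSK FLT3-, a change of 0.78 (adjusted p = 0.0211). Neither overlapped between the genotypes. For this comparison, leaving out 1 LSK FLT3- array repeats the fit on the 4 LMPP arrays. With those repeats counted, the calls held in 8 of 14 alternatives for Itgb7 and in 6 of 14 for Itga6. They were lost for both without either E2A-KO LMPP array (adjusted p of 0.0954 to 0.125), without either LSK FLT3- array (0.0936 for Itga6 and 0.101 for Itgb7) and without WT LMPP replicate 2 (0.0738 and 0.0905); without WT LMPP replicate 1 the Itga6 call was lost (0.0604). Between the stages Itgb7 rose by 0.77, Itgal by 0.65 and Itgb2 by 0.47, and Itga6 fell by 1.69. The calls of Itgal and Itgb2 were lost without LSK FLT3- replicate 2 (adjusted p of 0.104 and 0.206), and that of Itgb2 also without LSK FLT3- replicate 1 (0.120), without WT LMPP replicate 1 (0.151) and with array medians centred (0.0819).

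The last list held 12 genes, Cd44 itself with partners and sheddases of its product, and 11 were measured, Cd44 among them. Between the genotypes 0 passed, with a median of -0.10; Hmmr, another hyaluronan receptor, differed by -0.42 and Adam17, a protease that cuts CD44, by -0.35. Hmmr passed with a variance trend (adjusted p = 0.0289). Hmmr rose by 1.01 and Adam10, also a CD44 protease, fell by 0.92 from LSK FLT3- to WT LMPP, with a list median of 0.22.

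Only Ccr9, Ccr7 and Ccr2 among the 8 genes had group means that spanned at least 1 and were set against all other genes by the root mean square difference of their centred profiles over the 6 arrays. The profiles most like Ccr9 were Arpp21 (0.27), Il7r (0.30), the gene of the IL-7 receptor alpha chain, and Cnn3 (0.40). Arpp21 read 7.17 and 7.11 in WT LMPP, against 3.98 and 4.27 in E2A-KO LMPP and 5.08 and 4.78 in LSK FLT3-. Il7r read 8.24 and 8.70 in WT LMPP, against 4.73 and 4.58 in E2A-KO LMPP and 5.43 and 5.37 in LSK FLT3-. For both, WT LMPP stood far above the other groups, as for Ccr9. Both also passed as lower in E2A-KO LMPP than in LSK FLT3- (changes of -0.81 for Arpp21 and -0.74 for Il7r), where Ccr9 did not pass. For Ccr7 the closest were Rab7b (0.11), Boll (0.12) and Srr (0.14), and for Ccr2 they were Sntb1 (0.06), Sel1l2 (0.08) and Card6 (0.08). These were picked for their likeness and their values are a description.

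Ccr9 and Ccr2 lie in one cluster of receptor genes on chromosome 9, with Ccr2 the tenth gene beyond Ccr9 in the order of the reference table. Of the 10 genes on each side of Ccr9, 12 were measured, and 0 of them passed between the genotypes, against 1.37% of all genes. The largest of these differences was -0.72 for Lztfl1 (adjusted p = 0.0596), which read 7.48 and 7.76 in WT LMPP but 6.91 and 6.88 in E2A-KO LMPP without overlap. It passed without the dimmest 40% of genes (0.0386), with array medians centred (0.0471) and with a variance trend (0.00922). Between LSK FLT3- and WT LMPP 4 of the 12 rose and 1 fell, where 10.4% of all genes rose and 23.7% fell. Xcr1, Ccr1l1 and Ccr2 were among those that passed, with changes of 0.62, 0.65 and 1.19. The Ccr1l1 call was lost without LSK FLT3- replicate 1 (adjusted p = 0.108) or WT LMPP replicate 1 (0.0506). Next to Ccr7 on chromosome 11, 0 of 13 measured genes passed between the genotypes. It was 0 of 6 next to Cxcr4 on chromosome 1 and 0 of 11 next to Cx3cr1 on chromosome 9. Next to Ccr2 it was 1 of 10, Ccr9 itself. With 1.37% of all genes passing, counts of 0 among so few genes are near the share of all genes.

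**Figure D5:**
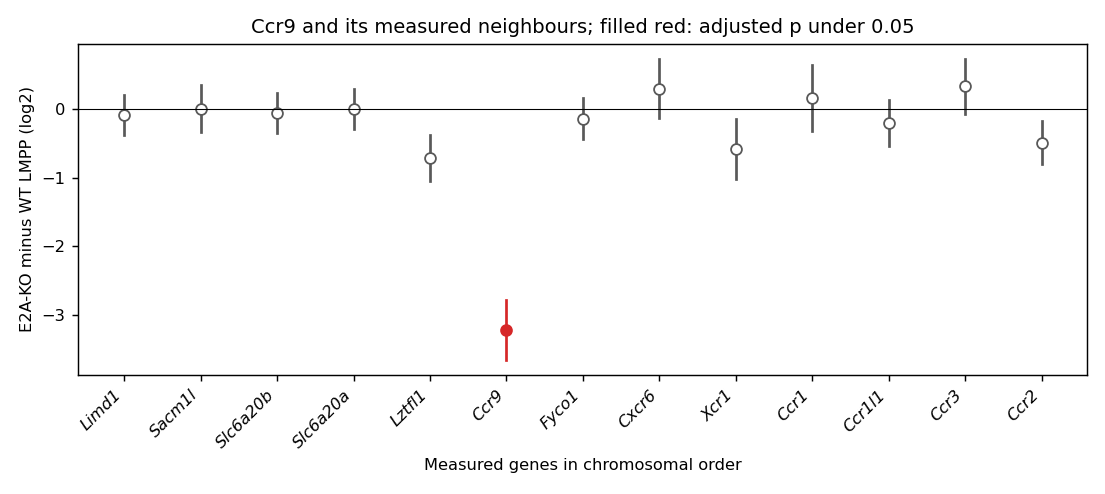
Change between E2A-KO and WT LMPP (log2, 95% interval) of Ccr9 and the 12 measured genes among its 10 neighbours on each side, in chromosomal order; filled red marks an adjusted p under 0.05. Ccr9 is at -3.22 and the next lowest, Lztfl1, at -0.72.

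Markers of other cell types were read because Ccr9 is also carried by plasmacytoid dendritic cells and Ccr2 by monocytes. In bulk samples, fewer cells of a type and less RNA per cell cannot be told apart. Of 9 measured plasmacytoid dendritic cell markers, Ccr9 among them, 1 fell between the genotypes, Ccr9, and 0 of the other 8 passed; 1 more fell with the mean of all probe sets, with a variance trend and without WT LMPP replicate 2. The list's median between the genotypes was -0.12, with 7 markers below and 2 above 0. The summed linear level of the 8 without Ccr9, weighted to their brightest probe sets, was 324.8 to 330.4 in WT LMPP. It was 266.3 to 275.7 in E2A-KO LMPP and 280.2 to 289.5 in LSK FLT3-. Siglech, a defining marker, read 4.59 and 4.79 in WT LMPP, against 4.57 and 4.62 in E2A-KO LMPP and 4.24 and 4.25 in LSK FLT3-. Cox6a2 rose by 1.54 from LSK FLT3- to WT LMPP and differed by -0.80 between the genotypes (adjusted p = 0.0725). The part of these cells in the Ccr9 result was not tested.

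Of 10 measured monocyte markers 3 fell in E2A-KO LMPP, while 7 stayed short of the threshold: F13a1 by 1.84, Csf1r by 1.13 and Mpeg1 by 1.08. The Csf1r call was lost without E2A-KO LMPP replicate 1 (adjusted p = 0.0668). The summed level of the 10, weighted to their brightest probe sets, was 1664.8 to 1881.1 in WT LMPP. It was 989.6 to 1039.8 in E2A-KO LMPP and 938.9 to 957.5 in LSK FLT3-. The list's median between the genotypes was -0.01, with 5 markers below and 5 above 0. Markers did not all share the order of Ccr2. Mpeg1 did, with means of 6.56 in LSK FLT3-, 8.61 in E2A-KO LMPP and 9.69 in WT LMPP. Adgre1 did by its means (3.90, 4.07 and 4.14), though its LMPP arrays overlapped. In contrast, E2A-KO LMPP was below LSK FLT3- for Csf1r (7.59 against 7.84), Lyz2 (7.76 against 8.52) and F13a1 (4.09 against 6.40). Itgam, which encodes CD11b, read 2.81 and 2.64 in WT LMPP, against 2.87 and 2.66 in E2A-KO LMPP, and Cd14 lay between 3.35 and 3.95 on all arrays, both at or below the array medians. In WT LMPP Fcgr1 was also below the medians (mean 3.71). Mpeg1, Csf1r and Lyz2 were far above them there, with means of 9.69, 8.72 and 8.24. F13a1 (5.94), Ms4a6c (5.92) and Cd68 (5.55) were above them too. The LIN-SCA1+KIT+ sort used for every sample is meant to remove lineage-positive cells, mature myeloid cells among them. How many remained was not measured. The part of monocytes in the Ccr2 values was not tested. Neutrophil markers moved with Ccr9 in the comparisons with WT LMPP. Of 9 measured, 7 fell in E2A-KO LMPP, with a median of -1.72 and Ngp lowest at -3.59, and 6 rose from LSK FLT3- to WT LMPP, or 3 without LSK FLT3- replicate 1. Against LSK FLT3-, 6 of the 9 were lower in E2A-KO LMPP (median -1.06), where 26.5% of all genes were lower and Ccr9 did not pass (-0.49). Summed, the neutrophil markers were at 2976.0 to 2979.4 in WT LMPP, 583.1 to 664.3 in E2A-KO LMPP and 1633.8 to 1750.4 in LSK FLT3-. Their part in the Ccr9 result was not tested. Between the genotypes 0 of 9 T cell, 0 of 7 B cell, 0 of 6 erythroid and 0 of 10 marrow stroma markers passed. From LSK FLT3- to WT LMPP 3 T cell and 3 B cell markers rose and 0 of either fell, 2 erythroid markers rose and 3 fell, and 3 stroma markers rose and 2 fell. Without LSK FLT3- replicate 1 the risers numbered 0, 2, 1 and 1 for T cell, B cell, erythroid and stroma markers, and without replicate 2 they numbered 0, 1, 0 and 1. Leaving out WT LMPP replicate 1 gave 1 T cell, 1 erythroid and 1 stroma riser, and leaving out WT LMPP replicate 2 gave 1 erythroid riser. Without the dimmest 40% of genes 1 of the 7 B cell markers was still tested, and it did not pass.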

How the data were processed

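The deposited table holds 1 linear intensity per probe set, and RMA (no version given) is named in the submitters' processing notes. RNA was amplified in 2 rounds from the 3' end, per the labels' protocols. Whether the arrays went through RMA together is not stated. The deposited intensity values run from 4.23 to 25594; log2 was taken. Groups follow titles and source names, since a free-text label calls every sample WT LMPP. Of 45101 probe sets, 34958 had 1 symbol, 932 several and 9211 none; 34754 matched a GRCm38.p6 gene table by Entrez ID. One mean per group was fitted to all 6 arrays with limma 3.58.1 (R 4.3.3) without covariates, and the scripts were tested on simulated data. With 200 simulated changed genes between the genotypes, 1.12% of changes of 0.5 (log2) were called. The share was 53.1% for changes of 1 and 90.8% for changes of 2. A gene that did not pass may thus still have a change of about 0.5. For arrays there is no read depth; their number limits precision. Alternatives changed scaling, filter, probe sets, variance model, arrays and replicate block. Leaving out 1 array of the group outside a comparison repeats the fit on the comparison's own 4 arrays. Same-numbered arrays did not deviate together (r of 0.01, -0.01 and -0.04), so numbers were not used as pairs. Members, lists and tests were chosen with earlier results of these data known; leaving out probe sets with _x_at or _s_at suffixes was chosen after seeing the data. Named list genes were up to 4 that passed, by size of change, or up to 2 otherwise; those given are taken from them, except where a range, a neighbour or a defining marker was named after its values were seen.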

Additional observations from a re-analysis of the deposited data

How the results depend on the processing

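The fall of Ccr9 in E2A-KO LMPP and the rises of Ccr9, Cxcr4 and Ccr2 from LSK FLT3- to WT LMPP kept sign and call in all 14 alternatives, and the rise of Ccr7 in the 13 that tested it; of 24 gene and comparison pairs, 14 kept every call and 17 every sign. The Ccr9 genotype change ran from -3.39 to -0.99. Of the 14, those without 1 array of the group outside a comparison repeat its own 4-array fit and are not separate checks. For all genes, the genotype comparison gave 250 calls, 89 with its own 4 arrays, 548 with a variance trend (when 2 members passed) and 89 to 164 when 1 array was left out. WT LMPP against LSK FLT3- gave 6198 calls, 3496 with quantile normalization and 2370 to 6410 with 1 array left out. E2A-KO LMPP against LSK FLT3- gave 6822, 3617 and 2944 to 7515. Members called in that comparison numbered 2, but 5 with its own 4 arrays, 4 with quantile normalization, 4 with array medians centred, 1 without the dimmest 40% of genes and 0 to 5 with 1 array left out. Ccr7, called in the main fit, was among the dimmest genes and so was not tested without them. The cause of the other differences was not tested. The share of calls that were higher was 30.5% for WT LMPP against LSK FLT3-, 47.4% with quantile normalization, 17.8% with array medians centred and 20.4% without the dimmest genes; centring moved the all-gene median from -0.01 to -0.12. For E2A-KO LMPP against LSK FLT3- these were 29.3%, 44.0%, 14.6% and 18.7%, and the median went from -0.02 to -0.16. With the replicate block, calls were 200, 5914 and 6535, and 1, 4 and 2 members passed as before. Groups of 2 arrays and dim probe sets limit what could be detected.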
